A study of Mus musculus with 2 samples.

Results

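The genes described here are 10 secreted regulators of Wnt signalling, out of 27998 genes in the count matrices of 2 single-cell RNA sequencing libraries of injured mouse muscle. They were picked by name and comprise the ligands Wnt2, Wnt5a and Wnt11, the R-spondin Rspo3, and the inhibitors Sfrp1, Sfrp2, Sfrp4, Dkk2, Dkk3 and Wif1. All 10 were found in the matrices, and their counts were summed over the cells of each cell type label of the deposited annotation and over each day. Both libraries came from tibialis anterior muscle of C57Bl/6 mice (C57BL/6J in the annotation) that had been injected with notexin, a snake venom toxin that destroys myofibres, and were collected 2 days or 7 days after the injection. No uninjured muscle was analysed here, so both groups carry the injury. Each group was 1 library from 1 mouse. The sample labels give an age of 7 months and female sex for both mice. The published study also gives 7 months for these samples, and female mice for its new single-cell experiments. The annotation instead gives 4 months at day 2, 7 months at day 7 and male sex, so day, mouse and possibly age cannot be told apart. With 1 library per day no test between days was possible, and no p-value is given.

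Wnt ligands are lipid-modified secreted proteins that bind Frizzled receptors together with the coreceptors Lrp5 and Lrp6, or with Ror and Ryk receptors, and act through beta-catenin or through other routes. Secreted Frizzled-related proteins (the Sfrp genes) and Wif1 bind the ligands themselves, Dkk2 binds Lrp5 and Lrp6, Dkk3 is a divergent member of the Dickkopf family, and R-spondins keep Frizzled receptors on the cell surface through Lgr receptors and the ligases Rnf43 and Znrf3. In skeletal muscle, fibro/adipogenic progenitors (FAPs) are the resident mesenchymal cells that expand after injury and lay down matrix, tenocytes are the cells of tendon, and muscle stem cells (MuSCs) rebuild the fibres. The question addressed here is which of these cells held transcripts of each Wnt regulator at an early and at a late day of repair.

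After the limits on cells, 3178 labelled cells remained at day 2 and 3196 at day 7, in 24 and 25 labels. The annotation divides FAPs into a pro-remodeling label (138 cells at day 2 and 495 at day 7), an adipogenic label (30 and 232 cells) and a stem label (47 and 78 cells), and has a tenocyte label (16 and 48 cells). FAPs held 5133205 counts at day 2 and 8150030 at day 7, and their median depth per cell was 24329 and 8429 counts. The stem label made up 21.9% of FAPs at day 2 and 9.69% at day 7. Levels are given as CPM, the summed counts of unique molecular identifiers (UMIs) scaled to the same total in every group of cells, with exact 95% Poisson intervals, and ratios with exact conditional binomial intervals. These intervals cover counting error only. Of the 6 stem markers, 5 were highest in the stem label among the FAP labels at both days (Pi16 at 89.8 and 3650 CPM), and Igfbp5 was so at day 7 but not at day 2 (97.7 CPM against 126 CPM in the pro-remodeling label). Fmod, a tendon proteoglycan, lay at 2280 and 3986 CPM in tenocytes against at most 20.6 CPM in any FAP label, whereas Thbs4, of the same tenocyte list, reached 1259 CPM in pro-remodeling FAPs at day 7. The summed adipogenic list was higher in the adipogenic than in the pro-remodeling label at day 7 (13689 against 10517 CPM) but lower at day 2 (7543 against 8815 CPM). The summed pro-remodeling list was higher in the pro-remodeling label at day 7 (4908 against 2916 CPM), while the 2 labels did not differ beyond counting error at day 2 (4121 against 4179 CPM). Between days the 8 general FAP markers together went from 12047 to 15653 CPM across the FAP labels at day 2 to 67798 to 73525 CPM at day 7, so a larger share of each FAP library was taken by such genes at day 7. The libraries shared 4 called barcodes, 1 of which was a kept cell in both, and no FAP or tenocyte.

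**Figure D1:**
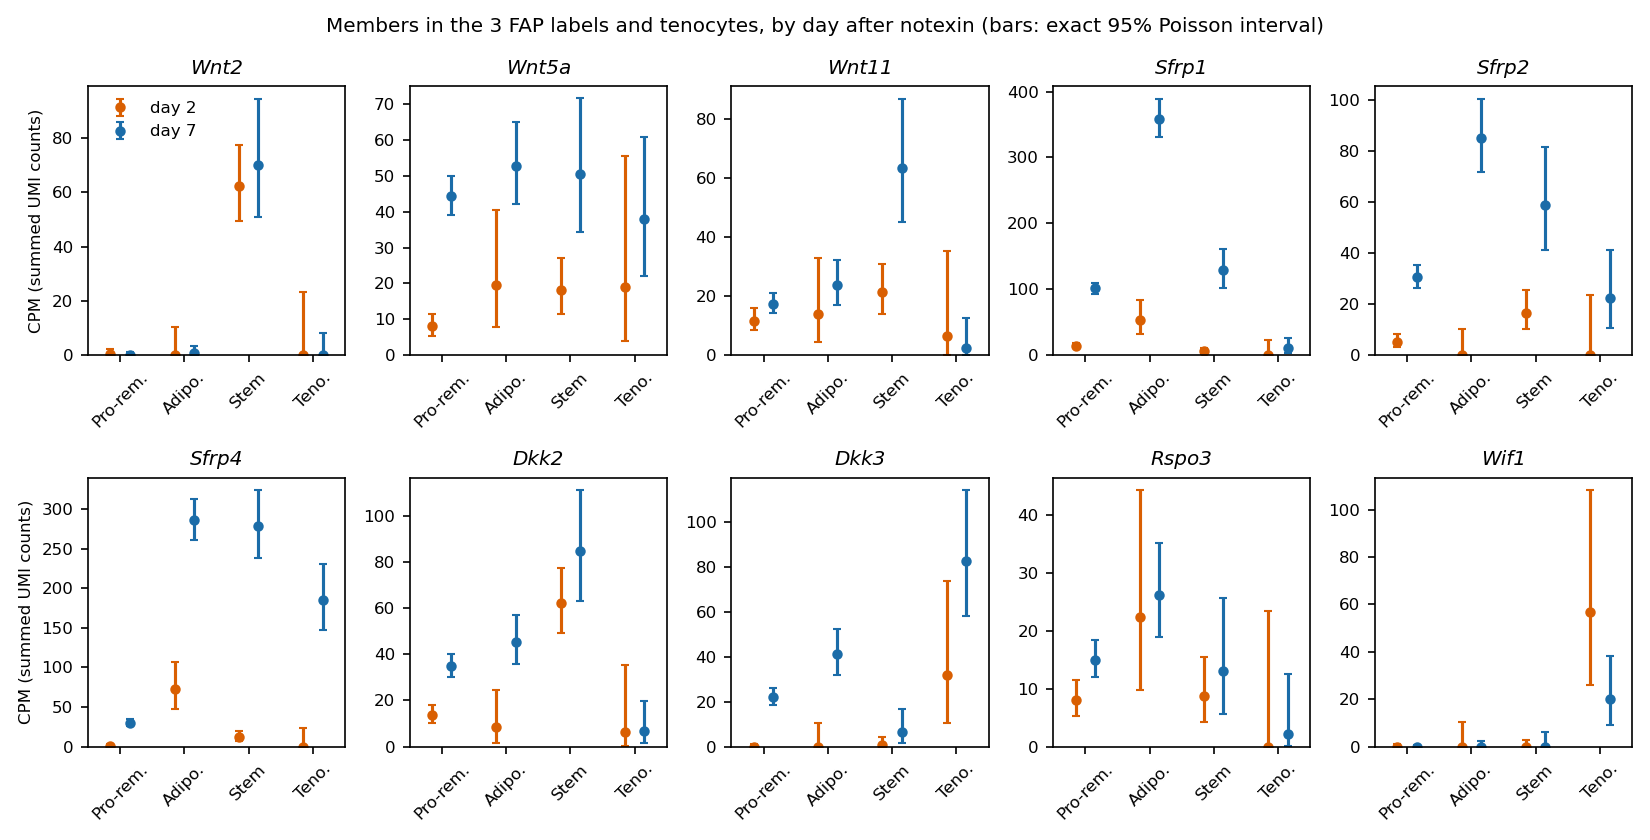
Levels of the 10 genes in the 3 FAP labels and in tenocytes at day 2 (orange) and day 7 (blue), 1 panel per gene with its own linear axis. Points are CPM of summed UMI counts in 1 library and bars the exact 95% Poisson interval. Wnt2 stands above 0 in the stem label at both days (62.2 and 70.1 CPM), Wif1 has counts in tenocytes and in no FAP label, and Sfrp1 reaches 359 CPM in the adipogenic label at day 7.

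Almost all counts of these genes lay in FAPs and tenocytes, with Wnt11, Sfrp1 and Dkk3 at day 2 as the exceptions. At day 7, FAPs and tenocytes held between 86.7% (Wnt11) and 100% (Wif1) of each gene's counts over all labelled cells. At day 2 they held over 90% of the counts of 7 of the genes, 71.0% of Sfrp1, 66.7% of the 9 Dkk3 counts and 12.4% of Wnt11. Capillary endothelial cells, which serve here as cells that should lack these genes, held no UMI of any of the 10 genes in 159 cells at day 2 or in 149 cells at day 7, which allows a share of up to 1.89% and 2.01% of cells with a UMI (3 counts over the number of cells). This limits cells with a UMI, not cells that express a gene at a low level. Their median depth was 6992 and 5444 counts per cell. Summed over the 10 genes, the FAP labels together held 107 CPM at day 2 and 456 CPM at day 7, and tenocytes held 120 and 372 CPM.

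Between days in FAPs, 5 of the 9 genes with at least 20 counts were at least 2-fold higher at day 7 (Wnt5a, Sfrp1, Sfrp2, Sfrp4 and Dkk3), 1 was at least 2-fold lower (Wnt2), and 3 were past 2-fold in neither direction (Wnt11, Dkk2 and Rspo3). Wif1 had no count in FAPs on either day. Among all 11851 genes with at least 20 counts, 25.6% were at least 2-fold higher at day 7 and 14% at least 2-fold lower. The median log2 ratio was 2.04 over these 9 genes and 0.21 over all genes, and Dkk3 passed the count minimum through its day 7 counts alone. The genes were chosen with earlier results of these data known, so nothing is read from these counts and medians against all genes. Scaling by the median of the ratios in place of total counts moved all log2 ratios down by 0.20 and changed the split over all genes from 3031 higher and 1654 lower to 2560 higher and 2149 lower. It left the same 5 and 1 of the genes described here past 2-fold. In the FAP labels taken singly, none of the 7 or 8 genes with enough counts was past 2-fold lower at day 7, and Wnt2 had enough counts in the stem label alone.

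**Figure D2:**
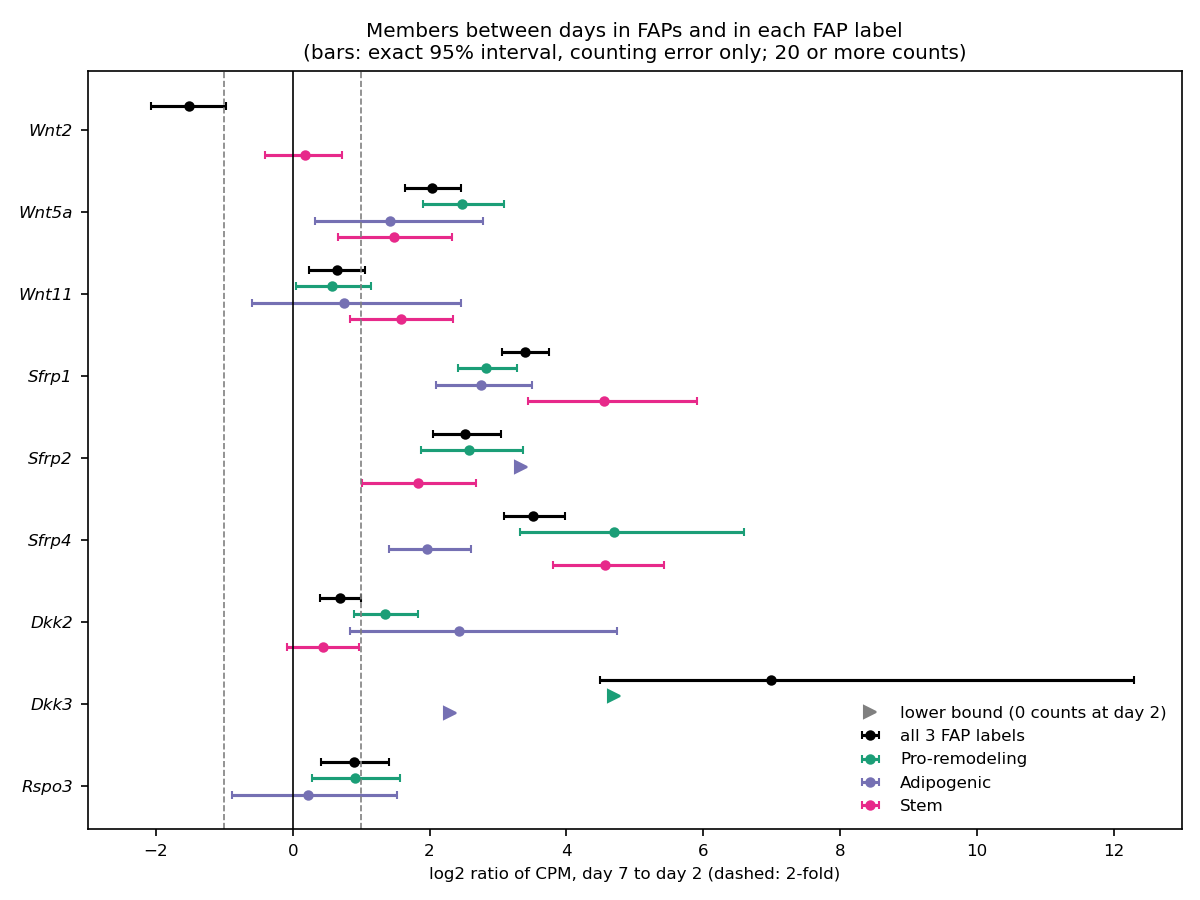
Log2 ratio of CPM at day 7 to day 2 for 9 of the genes (Wif1 had no count in FAPs), in all FAPs (black) and in each FAP label, where at least 20 counts were present. Bars are exact 95% intervals of counting error, triangles are lower bounds where day 2 held 0 counts, and dashed lines mark 2-fold. The pooled ratio of Wnt2 lies below 0 (-1.51) whereas its ratio within the stem label spans 0 (0.17, -0.40 to 0.73).

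Wnt2 (ENSMUSG00000010797, chromosome 6, 17988940 to 18030585 on the minus strand of GRCm38) encodes a ligand best known for beta-catenin signalling. Of its FAP counts, 79 of 81 at day 2 and 43 of 45 at day 7 lay in the stem label. At day 2 the stem label held 79 Wnt2 counts in 18 of 47 cells, 62.2 CPM (49.3 to 77.5), and the pro-remodeling label 2 counts, 0.570 CPM, while the adipogenic label and tenocytes held 0. At day 7 the stem label held 43 counts in 19 of 78 cells, 70.1 CPM (50.8 to 94.5), the pro-remodeling and adipogenic labels 1 count each, and tenocytes 0. The stem level was 109-fold that of the pro-remodeling label at day 2 (29.2 to 917) and 413-fold at day 7 (70.3 to 16690), over 2 and 1 pro-remodeling counts. With these taken as 3 counts, the log2 ratios were 6.18 and 7.11. Barcodes of 1 to 100 counts, taken as free RNA, held Wnt2 at 1.31 CPM at day 2 and 1.41 CPM at day 7, above the level of the pro-remodeling label at both days. These are levels within the free RNA, of which a cell holds only a part. SoupX took away at most 2.57% of the FAP counts of any of the 9 genes found there at either day, against 2.88% and 2.58% of all FAP counts. Over all FAPs, Wnt2 went from 15.8 to 5.52 CPM, a log2 ratio of -1.51 (-2.07 to -0.97), but within the stem label the log2 ratio was 0.17 (-0.40 to 0.73). With equal weight for the 3 FAP labels the ratio reversed, to 0.18. The stem label was a smaller share of FAP cells at day 7 (9.69% against 21.9%). The pooled level weights labels by counts, of which the stem label held 1269645 of 5133205 at day 2 and 613180 of 8150030 at day 7.

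Wnt5a (ENSMUSG00000021994, chromosome 14, 28504750 to 28527448, plus strand), a ligand that commonly signals through Ror receptors rather than beta-catenin, was found in every FAP label and in tenocytes. Its level went from 7.98 CPM (5.30 to 11.5) to 44.3 CPM (39.1 to 50.03) in the pro-remodeling label, from 19.7 CPM (7.90 to 40.5) to 52.8 CPM (42.3 to 65.2) in the adipogenic label, and from 18.1 CPM (11.5 to 27.2) to 50.6 CPM (34.4 to 71.8) in the stem label. The day 2 and day 7 intervals did not overlap in any of the 3 labels. Over all FAPs the ratio was 4.12-fold (3.12 to 5.52). At day 7 the 3 FAP labels could not be told apart within counting error, with the stem label at 1.14-fold (0.760 to 1.66) and the adipogenic label at 1.19-fold (0.925 to 1.53) the pro-remodeling level. Tenocytes held 17 counts at day 7, 38.0 CPM (22.2 to 60.9), and 3 counts at day 2.

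Wnt11 (ENSMUSG00000015957, chromosome 7, 98835112 to 98855195, plus strand), a ligand mostly tied to routes outside beta-catenin, was highest in the stem label among FAPs at both days. It lay at 21.3 CPM (14.0 to 30.9) in the stem label, 14.0 CPM (4.56 to 32.8) in the adipogenic label and 11.7 CPM (8.39 to 15.9) in the pro-remodeling label at day 2. At day 7 it lay at 63.6 CPM (45.2 to 86.9), 23.7 CPM (16.8 to 32.4) and 17.5 CPM (14.3 to 21.2) in the same order. The stem level was thus 2.99-fold higher at day 7, a log2 ratio of 1.58 (0.84 to 2.35), against 0.58 (0.05 to 1.14) in the pro-remodeling label and 0.75 (-0.59 to 2.46) in the adipogenic label. The free RNA level was 11.5 CPM at day 2 and 5.24 CPM at day 7, so at day 2 the pro-remodeling and adipogenic levels were close to it. SoupX took away 2.57% of the FAP counts of Wnt11 at day 2 and 0.646% at day 7. Tenocytes held 1 count at each day.

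Wnt2, Wnt11 and Dkk2 were the 3 genes with their highest FAP level in the stem label at both days, and for that reason the RefSeq sequence just before each gene's start is shown (GRCm38.p6, read 5′ to 3′ on the strand of the gene). The tables of RefSeq windows held 6 windows for 5 of the 10 genes. The windows are chr6:18030586-18030695 (minus strand) for Wnt2, of which only the part before the annotated gene start is printed, chr7:98834862-98835111 (plus strand) for Wnt11 and chr3:132085042-132085291 (plus strand) for Dkk2. Capitals mark exact matches to TATAAA or, in the Wnt11 window, to CTTTGAT on the other strand, the letters that TCF/LEF factors bind.
Wnt2: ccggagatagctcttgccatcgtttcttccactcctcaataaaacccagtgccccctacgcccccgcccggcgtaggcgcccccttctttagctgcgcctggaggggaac
Wnt11: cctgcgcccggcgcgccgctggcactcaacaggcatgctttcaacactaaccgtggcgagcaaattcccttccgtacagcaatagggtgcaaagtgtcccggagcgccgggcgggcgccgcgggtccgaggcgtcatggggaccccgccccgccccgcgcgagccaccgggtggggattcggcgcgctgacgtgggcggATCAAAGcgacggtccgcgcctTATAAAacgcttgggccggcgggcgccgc
Dkk2: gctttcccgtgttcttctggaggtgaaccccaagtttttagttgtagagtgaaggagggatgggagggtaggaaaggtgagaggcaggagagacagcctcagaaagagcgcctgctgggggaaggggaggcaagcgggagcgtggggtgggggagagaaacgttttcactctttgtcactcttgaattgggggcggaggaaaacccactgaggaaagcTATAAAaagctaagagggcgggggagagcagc
TATAAA began 29 bases before the start of Wnt11 and 32 bases before that of Dkk2, and the match to CTTTGAT began 51 bases before the start of Wnt11. Neither these letters nor CTTTGAA or TGACTCA, the AP-1 letters, were found in the 250 bases before the RefSeq start of Wnt2. Searched on both strands, 12.4% of 32851 windows of 250 bases held TATAAA, 3.21% CTTTGAT, 4.46% CTTTGAA and 4.46% TGACTCA. A match is a description of the letters only.

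Rspo3 (ENSMUSG00000019880, chromosome 10, 29452416 to 29535867, minus strand) was found in all 3 FAP labels, and the other R-spondins had at most 7 counts in FAPs at either day. Rspo3 lay at 7.98 CPM (5.30 to 11.5) in the pro-remodeling label, 8.66 CPM (4.32 to 15.5) in the stem label and 22.5 CPM in the adipogenic label at day 2, where all 8 adipogenic counts came from 1 cell. At day 7 it lay at 14.9 CPM (12.0 to 18.4), 13.05 CPM (5.63 to 25.7) and 26.1 CPM (18.9 to 35.2). Over all FAPs the ratio was 1.86-fold (1.33 to 2.65), and it passed 2-fold when the cell with the most counts at each day was left out or when cells were weighted equally. Tenocytes held 0 and 1 count. The annotation places another gene, Gm20276, on the same strand within Rspo3, so reads that fall in both could have been lost from its counts.

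Sfrp1 (ENSMUSG00000031548, chromosome 8, 23411502 to 23449632, plus strand), which encodes a secreted Frizzled-related protein, was higher in every FAP label at day 7 than at day 2. At day 2 it lay at 53.4 CPM (32.1 to 83.3) in the adipogenic label, 14.3 CPM (10.6 to 18.8) in the pro-remodeling label and 5.51 CPM (2.22 to 11.4) in the stem label. At day 7 the same labels lay at 359 CPM (331 to 389), 101 CPM (93.2 to 110) and 129 CPM (102 to 161). All day 7 intervals stood above all day 2 intervals. The ratio over all FAPs was 10.5-fold (8.32 to 13.4), from 76 and 1266 counts. It leaves out called barcodes without a label, described below, which held 121 Sfrp1 counts at day 2 and 73 at day 7. The log2 ratio was 4.55 (3.44 to 5.91) in the stem label, from 7 counts at day 2, 4 of them in 1 cell, and 2.83 (2.41 to 3.27) in the pro-remodeling label. Of the 79 stem counts at day 7, 25 came from 1 cell, and the level without it was 91.3 CPM. At day 7 the adipogenic level was 3.55-fold (3.16 to 3.98) that of the pro-remodeling label and 2.79-fold (2.20 to 3.57) that of the stem label. Tenocytes held 0 counts at day 2 and 5 at day 7, 11.2 CPM (3.63 to 26.1), which is below the free RNA level of 20.7 CPM.

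Sfrp2 (ENSMUSG00000027996, chromosome 3, 83766321 to 83774316, plus strand), of the same family, was also higher at day 7 in each FAP label. At day 2 it lay at 5.13 CPM (3.04 to 8.11) in the pro-remodeling label and 16.5 CPM (10.2 to 25.3) in the stem label, with 0 counts in the adipogenic label. At day 7 it lay at 30.6 CPM (26.3 to 35.4), 58.7 CPM (41.1 to 81.3) and 85.0 CPM (71.5 to 100). The adipogenic label was thus at least 10.1-fold higher at day 7, taking 0 counts at day 2 as 3, but 48 of its 140 counts at day 7 came from 1 cell and its level without that cell was 56.7 CPM. Over all FAPs the ratio was 5.75-fold (4.12 to 8.22). A UMI of Sfrp2 was held by 6.51% of FAPs at day 2 and by 13.9% at day 7.

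Sfrp4 (ENSMUSG00000021319, chromosome 13, 19623104 to 19632994, plus strand) was higher at day 7 in each FAP label. At day 2 it lay at 1.14 CPM (0.311 to 2.92) in the pro-remodeling label and 11.8 CPM (6.61 to 19.5) in the stem label. In the adipogenic label at day 2 it lay at 73.0 CPM, but 22 of the 26 counts came from 1 cell, and without it the level was 11.6 CPM. At day 7 it lay at 29.7 CPM (25.5 to 34.5), 279 CPM (239 to 324) and 286 CPM (261 to 313) in the pro-remodeling, stem and adipogenic labels. The stem and adipogenic levels at day 7 did not differ beyond counting error (1.03-fold, 0.859 to 1.23), while each was over 9-fold the pro-remodeling level (9.39-fold, 7.56 to 11.7, and 9.63-fold, 8.08 to 11.5). At day 7, 55 of 78 stem cells held a UMI of Sfrp4 against 63 of 232 adipogenic and 70 of 495 pro-remodeling cells. Thinned to 2000 counts per cell, the shares were 37.8% (26.8 to 49.9), 17.6% (12.8 to 23.3) and 4.24% (2.65 to 6.41). Over all FAPs the ratio between days was 11.4-fold (8.47 to 15.8), a log2 ratio of 3.52, and without the cell with the most counts at each day the log2 ratio was 4.37.

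Dkk2 (ENSMUSG00000028031, chromosome 3, 132085292 to 132180304, plus strand), a Dickkopf protein that can block Lrp5 and Lrp6, was highest in the stem label. It lay at 62.2 CPM (49.3 to 77.5) there at day 2, against 13.7 CPM (10.1 to 18.1) in the pro-remodeling label and 8.42 CPM (1.74 to 24.6) in the adipogenic label. At day 7 it lay at 84.8 CPM (63.3 to 111.2), 35.0 CPM (30.4 to 40.1) and 45.5 CPM (35.8 to 57.1). The stem level did not move beyond counting error between days, with a log2 ratio of 0.45 (-0.09 to 0.97), while it was 1.35 (0.89 to 1.84) in the pro-remodeling label and 2.43 (0.83 to 4.74) in the adipogenic label, which had 3 counts at day 2. The gap between the stem and pro-remodeling labels was 4.55-fold (3.14 to 6.65) at day 2 and 2.42-fold (1.75 to 3.30) at day 7, and these intervals overlap. Tenocytes held 1 and 3 counts.

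Dkk3 (ENSMUSG00000030772, chromosome 7, 112116017 to 112159057, minus strand), the divergent Dickkopf gene, had 1 count in the 215 FAPs of day 2 and 202 counts in the 805 FAPs of day 7. The ratio was 127-fold with an interval of 22.6 to 5050, a log2 ratio of 6.99, and with the 1 count taken as 3 the log2 ratio was 5.41. At day 7 it lay at 41.3 CPM (32.1 to 52.4) in the adipogenic label, 22.1 CPM (18.4 to 26.2) in the pro-remodeling label and 6.52 CPM (1.78 to 16.7) in the stem label, where 4 counts lay in 3 cells. Dkk3 was the gene with the lowest stem level against the pro-remodeling level at day 7 (0.296-fold, 0.0793 to 0.775), the opposite order to Wnt2, Wnt11 and Dkk2. The free RNA level was 0.327 CPM at day 2 and 4.43 CPM at day 7, and the interval of the stem level at day 7 included the latter. The pro-remodeling label, with 0 counts at day 2, was at least 25.8-fold higher at day 7, taking 0 counts as 3.

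Taken label by label, the pro-remodeling FAPs had 6 of 8 genes past 2-fold higher at day 7 (26% of 11288 genes) and none past 2-fold lower (13.7%). The adipogenic FAPs likewise had 6 of 8 genes higher (17.3% of 8387 genes) and none lower (15.3%), and the stem FAPs 5 of 7 higher (17.3% of 7897 genes) and none lower (21.3%). Several of the genes called higher had under 20 counts at day 2 and passed the count minimum through day 7, which favours that direction. They were Sfrp2, Sfrp4 and Dkk3 in the pro-remodeling label, all but Sfrp4 in the adipogenic label, and Sfrp1 and Sfrp4 in the stem label. Nothing is therefore read from these counts against the shares of all genes. Wnt5a, Sfrp1, Sfrp2 and Sfrp4 were past 2-fold higher in all 3 labels. Dkk2 was past 2-fold higher in the pro-remodeling and adipogenic labels and Wnt11 in the stem label alone, though the difference between labels was not tested. At day 2 the adipogenic label held 1323 CPM of the 8 leukocyte markers, with 7 of its 30 cells at 3 or more such counts, against 120 and 106 CPM in the pro-remodeling and stem labels, and at day 7 the range was 105 to 139 CPM. Without cells holding 3 or more leukocyte or endothelial marker counts, the same 5 genes higher and 1 lower were past 2-fold over all FAPs. The 8 tenocyte markers together went from 153 to 1319 CPM in the pro-remodeling label (14 of 138 and 335 of 495 cells with 3 or more counts), from 362 to 1022 CPM in the adipogenic label and from 2.36 to 246 CPM in the stem label. Thbs4, at the level given above, made up most of the pro-remodeling sum at day 7. The 6 myofibre markers lay between 4.85 and 8.42 CPM in the FAP labels at day 2 and between 253 and 338 CPM at day 7. At day 2, 4 of the 8 tenocyte markers were at 0 in the pro-remodeling label and 7 in each of the other two, and at day 7 only the stem label had any at 0. The part of these transcripts in the FAP values, Dkk3 included, was not tested.

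The share of FAPs with a UMI depends on depth, and depth per FAP was lower at day 7. Unthinned, 18.1% of FAPs held a UMI of Sfrp1 at day 2 and 42.6% at day 7, and for Wnt5a the shares were 20.5% and 33.3%. With each cell thinned to 2000 counts, which left out 2 and 20 shallower FAPs, the shares were 4.23% (1.95 to 7.87) and 21.0% (18.2 to 24.0) for Sfrp1, and 1.88% (0.514 to 4.74) and 10.7% (8.63 to 13.1) for Wnt5a (exact Clopper-Pearson intervals). For Sfrp4 the thinned shares were 0.939% (0.114 to 3.35) and 11.1% (8.97 to 13.5). For Wnt11 the unthinned shares, 23.3% and 18.1%, and the thinned shares, 2.82% (1.04 to 6.03) and 4.33% (3.02 to 6.00), ran in opposite orders, and no order is read from them. Within the stem label, Wnt2 had a UMI in 38.3% and 24.4% of cells unthinned and in 12.8% (4.83 to 25.7) and 14.9% (7.66 to 25.0) thinned.

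UMIs of several of these genes in 1 cell were found most often in the stem label. Unthinned, at day 7, 46 of 78 stem cells held UMIs of 3 or more of the 10 genes, against 62 of 232 adipogenic and 125 of 495 pro-remodeling cells. At day 2 the numbers were 19 of 47, 2 of 30 and 7 of 138 cells. After thinning to 2000 counts, 3 or more of the genes were held by 13.5% of stem (6.68 to 23.5), 5.09% of adipogenic (2.57 to 8.93) and 1.01% of pro-remodeling FAPs (0.329 to 2.34) at day 7. At day 2 the thinned share was 4.26% of stem FAPs (0.520 to 14.5), with no such cell in the other two labels. Likewise thinned, 25.7% of stem FAPs (16.2 to 37.2) held none of the 10 genes at day 7, against 41.7% of adipogenic FAPs (35.0 to 48.5) and 59.0% of pro-remodeling FAPs (54.5 to 63.4). At day 2 the thinned shares with none were 63.8% (48.5 to 77.3), 85.7% (67.3 to 96.0) and 87.7% (81.0 to 92.7) in the same order. Cells of 1 library are not replicates, so these are shares within each library.

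Tenocytes were compared with all FAPs at day 7. At that day, Dkk3 lay at 82.8 CPM (58.3 to 114) in tenocytes against 24.8 CPM over all FAPs, 3.34-fold (2.29 to 4.76), and was the only gene of the 9 with enough counts that was past 2-fold higher (10.7% of 11372 genes were). Of its 37 tenocyte counts, 14 came from 1 cell, and the level without that cell was 55.4 CPM. Sfrp1 (5 counts), Dkk2 (3 counts), Wnt11 and Rspo3 (1 count each) were past 2-fold lower (5.65% of genes were), with ratios of 0.0720-fold (0.0234 to 0.169), 0.164-fold (0.0337 to 0.484), 0.101-fold (0.00254 to 0.569) and 0.131-fold (0.00330 to 0.743). These 4 passed the count minimum through FAPs alone, which favours that direction, so nothing is read from their number. Wnt5a did not differ beyond counting error (0.818-fold, 0.472 to 1.33), and Wnt2 had no count in tenocytes. Sfrp4 lay at 186 CPM (148 to 230) in tenocytes, but its 83 counts came from 6 of 48 cells, and the level without the highest of them was 129 CPM. With stricter limits on cells, Sfrp4 passed 2-fold higher and Sfrp2 passed 2-fold lower, and at 3-fold Rspo3 was no longer called.

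Wif1 (ENSMUSG00000020218, chromosome 10, 121033960 to 121100650, plus strand), the Wnt inhibitory factor that binds ligands, was found in tenocytes and in no other label. It had 9 counts in 3 of 16 tenocytes at day 2, 57.0 CPM (26.1 to 108), and 9 counts in 1 of 48 tenocytes at day 7, 20.1 CPM (9.21 to 38.2). No Wif1 count fell in the 215 FAPs of day 2 or the 805 FAPs of day 7, and no count in the free RNA at either day. The day 7 level rests on 1 cell, so no fold against FAPs is given. Between days in tenocytes, 3 genes had at least 20 counts and all 3 were at least 2-fold higher at day 7, against 21.2% of 4371 genes, with none lower, against 14.6%. All 3 had under 20 counts at day 2 and none could have passed the minimum without its day 7 counts, so nothing is read from this count. These were Sfrp4 (0 to 83 counts, at least 9.78-fold with 0 taken as 3), Dkk3 (5 to 37 counts, 2.62-fold, 1.03 to 8.53) and Wnt5a (3 to 17 counts, 2.00-fold, 0.579 to 10.7). Of these, only Sfrp4 remained past 2-fold with cells weighted equally or without cells holding leukocyte or endothelial markers, and Wnt5a stayed past 2-fold under median-of-ratios scaling alone.

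Outside FAPs and tenocytes, Wnt11 in dendritic cells at day 2 had the most counts. Dendritic cells held 347 of the 595 Wnt11 counts of that library, 162 CPM (145 to 180), in 85 of 170 cells, against 14.2 CPM over all FAPs. At day 7 they held 11 counts, 10.6 CPM (5.28 to 18.9), in 7 of 145 cells, a log2 ratio of -3.93 (-4.95 to -3.07). At day 2, Wnt11 also lay at 27.7 CPM (17.7 to 41.2) in Cx3cr1_hi M2 macrophages, 25.4 CPM (19.6 to 32.4) in inflammatory monocytes and 9.30 CPM (7.15 to 11.9) in M1 macrophages, and the first 2 of these had 0 counts at day 7. The free RNA level of 11.5 CPM was above that of the M1 macrophages. In dendritic cells the counts were spread over cells, with 14 in the highest cell and 157 CPM without it, and the other 9 genes together had 1 count there. Thinned to 2000 counts, 22.4% of dendritic cells (16.3 to 29.4) held Wnt11 at day 2 and 2.78% (0.762 to 6.96) at day 7. Dendritic cells with Wnt11 held the 8 FAP markers at 725 CPM (678 to 775) and those without it at 568 CPM (521 to 618), against 12047 CPM or more in the FAP labels of that day, and the leukocyte markers were at 2879 and 2256 CPM in these cells.

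**Figure D3:**
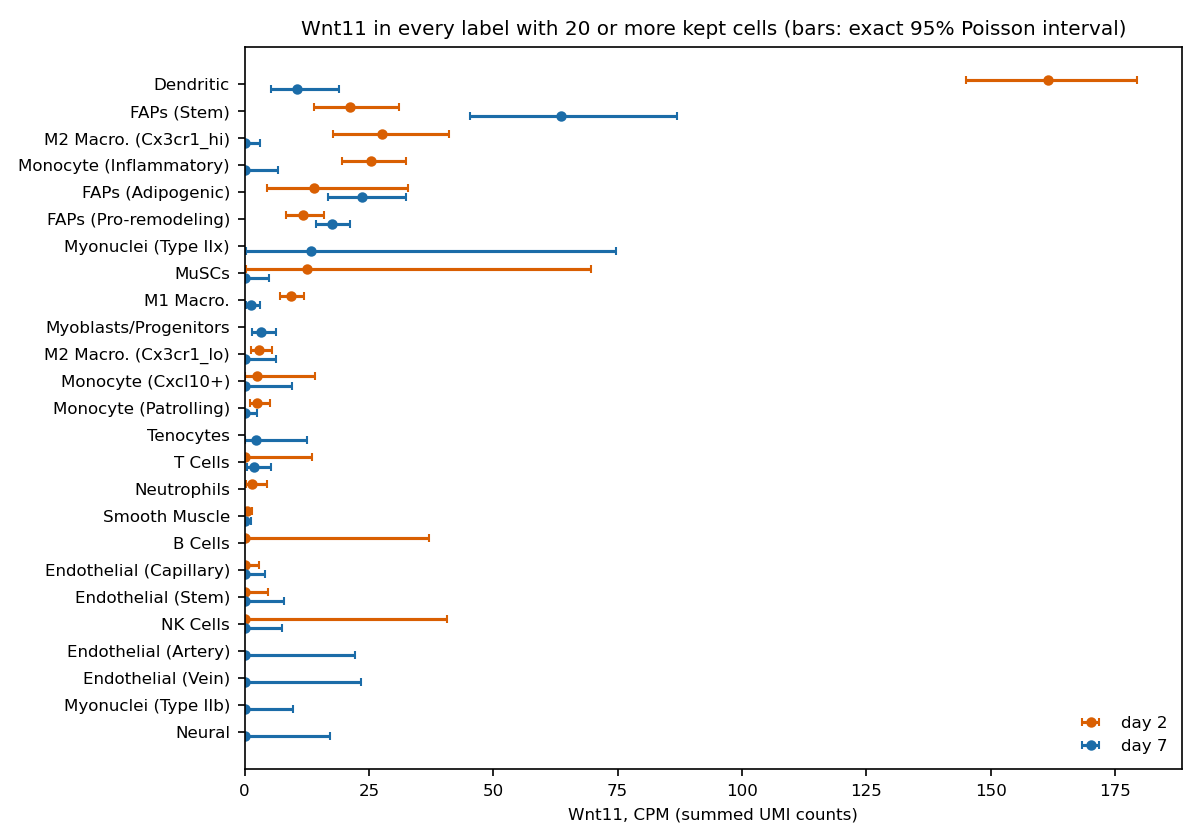
Wnt11 in every label with 20 or more kept cells, as CPM of summed UMI counts on a linear axis, at day 2 (orange) and day 7 (blue), with exact 95% Poisson intervals. The dendritic cells of day 2 stand at 162 CPM and those of day 7 at 10.6 CPM, whereas the stem FAPs go from 21.3 to 63.6 CPM.

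Neural cells held Sfrp1 at the highest level of that gene in any label, 425 CPM (282 to 614) at day 2, but this was 28 counts in 4 of 9 cells, 24 of them in 1 cell, and 69.7 CPM without it. They held 34 counts in 7 of 41 cells at day 7, 159 CPM (110 to 222). At day 7, T cells held 14 Dkk3 counts in 9 of 293 cells and venous endothelial cells 5 Rspo3 counts in 3 of 21 cells. MuSCs held 10 counts of the 10 genes together at day 7 in 137 cells, and 4 in 21 cells at day 2.

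Among other genes of the pathway in FAPs, differences between days ran both ways. The counts of each list stand against 25.6% of all genes past 2-fold higher and 14% past 2-fold lower. The lists too were chosen with earlier results of these data known, so these comparisons are a description only. Of 16 other Wnt ligands, 3 had at least 20 counts. Wnt9a was higher at day 7 (3 and 91 counts, 0.584 and 11.2 CPM, log2 ratio 4.26, 2.66 to 6.56), Wnt5b was lower (3.51 and 1.10 CPM, -1.67, -3.004 to -0.44) and Wnt4 was past 2-fold in neither direction (3.12 and 1.60 CPM). Of 14 other secreted modulators, 2 had enough counts and both were higher. Sfrp5, like Wnt9a, passed the minimum through day 7 alone. The genes were Igfbp4, a binding protein of insulin-like growth factors that also binds Frizzled 8 and Lrp6 (254 and 2292 CPM, log2 ratio 3.17, 3.09 to 3.25), and Sfrp5, with no count on the early day and 63 on the late one, at least 13.2-fold with 0 taken as 3. Frzb, another Frizzled-related inhibitor, had 2 and 6 counts. Wls, which carries Wnt ligands to the cell surface, was 2.80-fold higher (45.4 and 127 CPM, log2 ratio 1.48, 1.28 to 1.70), while Porcn, which attaches their lipid, was not past 2-fold (4.87 and 8.22 CPM). Wls lay at 38.5 CPM (32.3 to 45.6) and 135 CPM (126 to 145) in the pro-remodeling label. In the stem label it lay at 60.6 CPM (47.9 to 75.8) and 114 CPM (89.0 to 144), and in the adipogenic label the intervals overlapped, at 59.0 CPM (36.5 to 90.1) and 104 CPM (88.9 to 121).

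**Figure D4:**
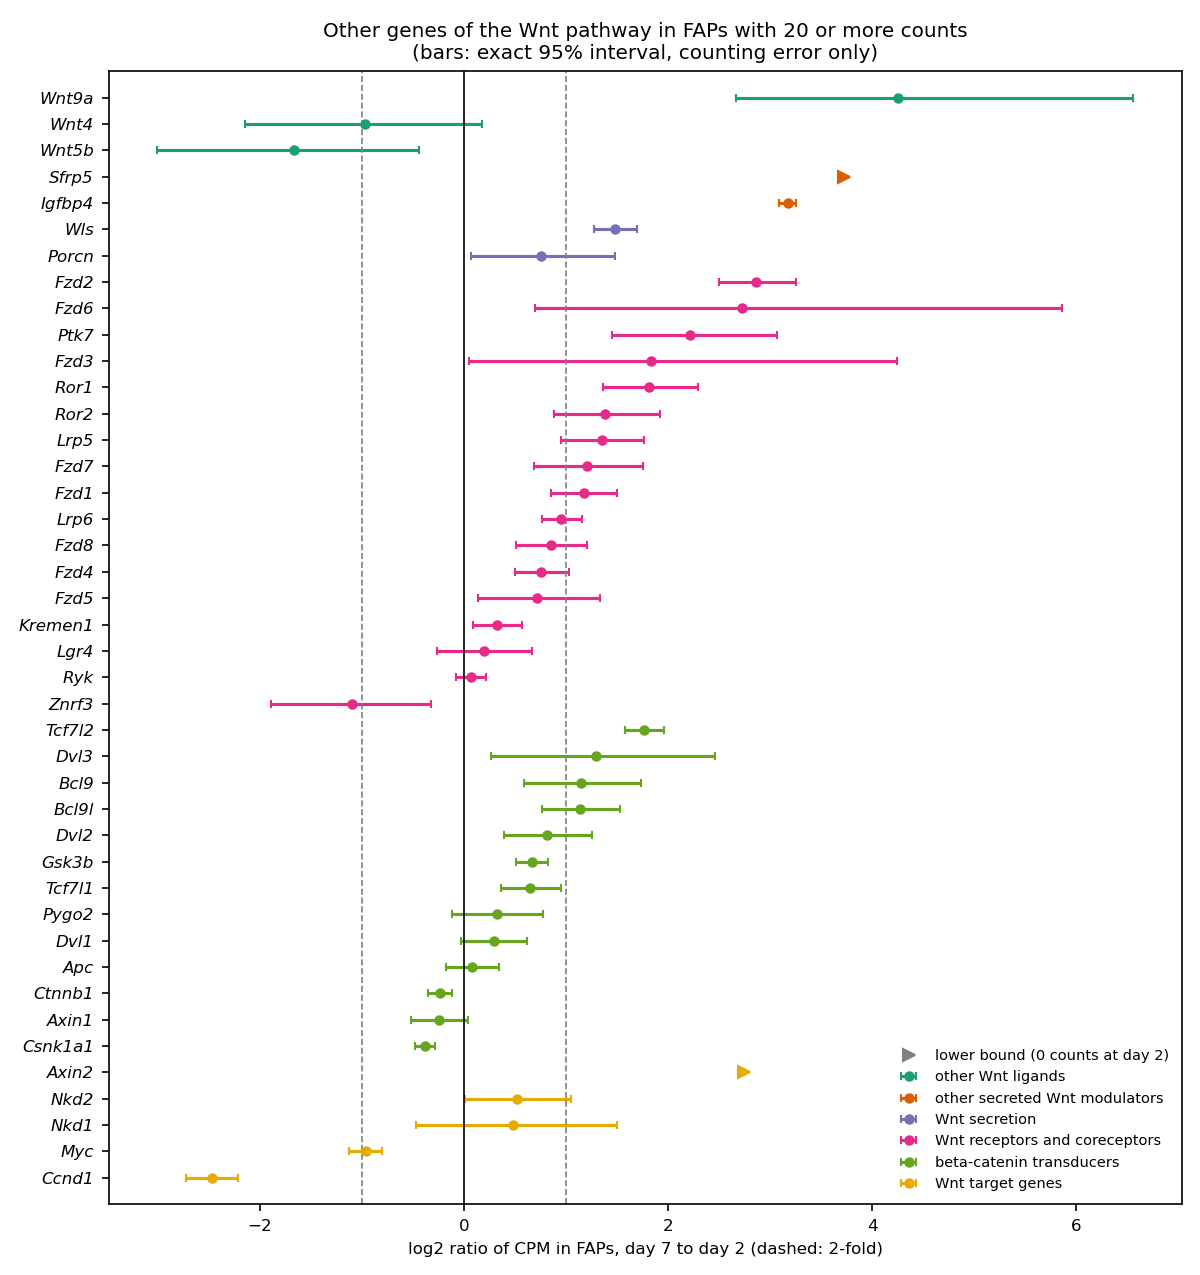
Log2 ratio of CPM in all FAPs, day 7 to day 2, for the 42 pathway genes outside the 10 with at least 20 counts, coloured by list, with exact 95% intervals of counting error. Triangles are lower bounds where day 2 held 0 counts, and dashed lines mark 2-fold. Of the receptors, 9 lie past 2-fold higher and Znrf3 lies past 2-fold lower, and of the target genes Axin2 lies higher and Ccnd1 lower.

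Of 23 receptors and coreceptors, 17 had enough counts. At day 7, 9 were past 2-fold higher (25.6% of all genes were), 1 was lower (14% were) and 7 were neither. The median log2 ratio was 1.17 against 0.21 over all genes. Of those called higher, Fzd3, Fzd6 and Ptk7 had under 20 counts at day 2. The Frizzled receptor Fzd2 changed most among those with over 100 counts, from 12.7 to 92.3 CPM (log2 ratio 2.87, 2.50 to 3.25). The others past 2-fold higher were Fzd1, Fzd3, Fzd6, Fzd7, Lrp5, Ror1, Ror2 and Ptk7, with log2 ratios from 1.17 (Fzd1) to 2.73 (Fzd6). Ryk (122 and 129 CPM) and Lrp6 (55.7 and 108 CPM) were past 2-fold in neither direction. Znrf3, a ligase that removes Frizzled receptors, was lower (6.82 and 3.19 CPM, log2 ratio -1.10, -1.89 to -0.32). Of the 15 beta-catenin transducers, 13 had enough counts, with 4 higher (Tcf7l2, Dvl3, Bcl9 and Bcl9l) and none lower, a share higher that is near that of all genes. Tcf7l2, a DNA-binding partner of beta-catenin, went from 50.5 to 172 CPM (log2 ratio 1.77, 1.58 to 1.97), while Csnk1a1 (302 and 232 CPM), Ctnnb1 (201 and 171 CPM) and Gsk3b (88.6 and 140 CPM), stayed under 2-fold. Over all 6 lists 18 genes were past 2-fold higher and 3 lower, and with median-of-ratios scaling 15 were higher and 5 lower, 18 of them among the 21, where all 11851 genes split into 2560 higher and 2149 lower.

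Of the 14 target genes, 6 had enough counts, and 1 was higher (25.6% of all genes were) and 2 lower (14% were). Axin2, the most general target of beta-catenin signalling, passed the count minimum through day 7 alone and had no count in FAPs on the early day and 32 on the late one, a gap of at least 6.72-fold with 0 taken as 3. At day 7 Axin2 lay at 13.05 CPM (5.63 to 25.7) in the stem label, 5.47 CPM (2.50 to 10.4) in the adipogenic label and 2.55 CPM (1.43 to 4.20) in the pro-remodeling label. Ccnd1, which drives entry into the cell cycle and has many other regulators, was lower (567 and 163 counts, log2 ratio -2.47, -2.73 to -2.21), and so was Znrf3, which is also counted among the receptors. Myc was just under 2-fold lower (136 and 69.8 CPM, log2 ratio -0.96, -1.13 to -0.80), and Nkd2, an inhibitor of the pathway within the cell, was neither over all FAPs (9.16 and 13.1 CPM). By label, Nkd2 went from 2.81 CPM (1 count) to 40.7 CPM (31.5 to 51.7) in the adipogenic label. In the pro-remodeling label it went from 12.0 CPM (8.63 to 16.2) to 6.28 CPM (4.42 to 8.66), and these intervals overlap. The stem label held 4 and 3 counts (3.15 and 4.89 CPM), and the difference between labels was not tested.

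MuSCs, whose receptors were read from the same list, numbered 137 at day 7 and 21 at day 2, with 80061 counts in all at day 2. At day 7 the 3 receptors of the list with the most counts in MuSCs were Kremen1, a receptor of Dickkopf proteins, at 196 CPM (165 to 230), Ryk at 182 CPM (153 to 216) and Lrp6 at 130 CPM (106 to 159). Of the Ror receptors, which can bind Wnt5a, Ror1 lay at 54.6 CPM (39.2 to 74.0) and Ror2 had 0 counts. Axin2 had 6 counts.

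Over the 41 combinations of label and day with at least 20 cells, the levels of these genes were compared with each other and with all other genes. These points share libraries, and most of their spread is between FAPs and all other labels, so the correlations of log2(CPM + 1) are a description. Wnt5a, Sfrp1, Sfrp2, Sfrp4, Dkk2 and Rspo3 correlated with each other at r between 0.68 and 0.88. Wnt11 correlated with the other genes at 0.21 to 0.52 and Wnt2 at 0.12 to 0.68, its highest being Dkk2, while Dkk3 ranged from 0.12 (Wnt2) to 0.77 (Sfrp4). Of all genes with at least 200 counts, the 3 most like Wnt2 were Pcolce2, Sbsn and Aldh1a3 (r 0.77 to 0.72), those most like Wnt5a were Fbln1, Adamts2 and Srpx (0.94 to 0.92), and those most like Wnt11 were Sec61g, Igfbp6 and Ifi205 (0.70 to 0.66). Those most like Sfrp1 were Ntrk2, Mme and Scn7a (0.93 to 0.92), those most like Sfrp2 were D630033O11Rik, Sult5a1 and Lrrn4cl (0.92 to 0.91), and those most like Sfrp4 were Mmp23, Podn and Itga11 (0.91 to 0.89). For Dkk2 they were Scara3, Nova1 and Bmper (0.94 to 0.91), for Dkk3 Spon2, Lrrn2 and Cacna1g (0.87 to 0.86), and for Rspo3 Pi15, C1qtnf7 and Serpina3n (0.92 to 0.89). Wif1 had too few counts (18) to be compared.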

How the data were processed

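Single-cell RNA sequencing libraries of notexin-injured tibialis anterior muscle (1 at day 2, 1 at day 7) were taken as deposited. The matrices deposited by the authors hold uncorrected UMI counts of every barcode, and of the barcodes called as cells, from Cell Ranger (3.0.1 per the file headers, 3.1.0 per the labels) on mm10. Estimated counts, left after SoupX took away a fitted share of free RNA, were deposited too, as was an annotation table of cell labels. According to the study's methods, putative doublets were removed before the labels were given, and no doublet caller was run here.

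Labelled cells were kept where the SoupX values held 750 genes or more, 1000 UMIs or more and a mitochondrial share of 30% or less. Uncorrected counts were summed per label and day and scaled to CPM. Depth in called barcodes was 41123913 counts at day 2 and 32356088 at day 7. Genes with at least 20 counts over both groups entered a comparison, and a gene was called past 2-fold in the ratio of CPM, counts under 3 taken as 3. Free RNA was read from barcodes of 1 to 100 counts in the unfiltered matrix. Intervals (95%) are exact Poisson, Clopper-Pearson or conditional binomial, from scipy 1.17.1 with numpy 2.4.6 and pandas 2.3.3 in Python 3.11.15, and figures from matplotlib 3.10.9. The Poisson and conditional binomial intervals and the calls were tested on simulated Poisson counts. That is the model these intervals assume, so counts that cluster in single cells were not checked. Coordinates are from GENCODE vM21 (GRCm38) and sequences from RefSeq (GRCm38.p6).

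Named genes are the 10 genes; from each of 6 pathway lists those past 2-fold between days in FAPs and the 3 highest in FAPs; the 3 highest receptors in MuSCs at day 7; and the 3 genes most correlated with each gene that had at least 100 counts over FAPs and tenocytes. Ror1, Ror2 and Axin2 in MuSCs, Frzb, counts outside FAPs and tenocytes, and barcodes outside the annotation were chosen after their values were seen. The genes and lists were chosen with earlier results of these data known. Alternatives were SoupX values, no limits or stricter limits on cells, median-of-ratios scaling, equal weight of cells or of FAP labels, leaving out cells with leukocyte or endothelial markers, 3-fold calls, thinning to 2000 counts and, added after the data were seen, leaving out the cell with the most counts of each gene.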

Additional observations from a re-analysis of the deposited data

Results flagged for a closer look

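The ratio of Wnt11 between days had opposite signs in FAPs and in 4 myeloid labels, a difference that was not tested, with 1 library per day. In FAPs its log2 ratio of day 7 to day 2 was 0.64 (0.24 to 1.06), which is not past 2-fold and stands beside 0.21 over all genes. In dendritic cells it was -3.93 (347 and 11 counts) and in M1 macrophages -2.96 (63 and 4 counts). In Cx3cr1_hi M2 macrophages and inflammatory monocytes, which had 24 and 64 counts at day 2 and 0 at day 7, the upper limits of the log2 ratio were -3.09 and -1.90. The free RNA level of Wnt11 went from 11.5 to 5.24 CPM over the same days, and its part in these values was not tested.

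Called barcodes that passed the limits but are not in the annotation table, 680 at day 2 and 477 at day 7, also held these genes. At day 2 they held 121 counts of Sfrp1 in 18 barcodes, more than the 76 counts of the labelled FAPs. According to the study's methods, putative doublets and a noisy cluster were removed, but which of these barcodes that covers is not given. These barcodes entered no ratio, and the Sfrp1 ratio with them was not computed. They also held 91 counts of Wnt11, 62 of Dkk2, 38 of Wnt2, 15 of Wnt5a, 13 of Sfrp4, 12 of Sfrp2 and 10 of Rspo3. At day 7 they held 73 counts of Sfrp1 in 11 barcodes, 13 of Dkk3, 12 of Dkk2, 7 of Sfrp4, 6 of Wnt11 and 5 of Wnt5a. Of the 18 Sfrp1 barcodes of day 2, 59 counts lay in 1 barcode, 16 barcodes held 3 or more FAP marker counts, 11 held 3 or more leukocyte marker counts and 6 held 3 or more neural and glial marker counts. Their median depth was 27535 counts, against 4402 in the other unlabelled barcodes.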

How the results depend on the processing

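No paired analysis was possible because each day has 1 library. Over all FAPs, 6 genes were past 2-fold and 5 to 7 under every alternative. With equal weight of the 3 FAP labels the log2 ratio of Wnt2 was reversed, at 0.18 in place of -1.51, and Wnt11 passed 2-fold higher. Over the alternatives the log2 ratio of Wnt2 ranged from -1.997 to 0.18, that of Sfrp1 from 3.01 to 3.49, that of Sfrp4 from 2.79 to 4.37 and that of Wnt5a from 1.69 to 2.38. Of 70 such values for the 9 genes, 63 stayed within the counting interval of the reported value, 6 moved beyond it in the same direction and 1 was reversed. In tenocytes between days, the 3 genes past 2-fold became 1 with cells weighted equally, 1 without cells with leukocyte or endothelial markers and 1 at 3-fold, each time Sfrp4. Between tenocytes and FAPs at day 7 the 5 genes became 4 to 7, and within the FAP labels the 17 combinations of gene and label past 2-fold became 13 to 19. The 21 pathway genes past 2-fold became 12 at 3-fold, 16 without cells with leukocyte or endothelial markers (15 of the 21 and 1 other) and 20 to 24 otherwise. Thinning moved 17 of 20 shares of FAPs with a UMI beyond their interval. With 16 and 48 tenocytes and 30 adipogenic FAPs at day 2, several levels rest on 1 to 3 cells, and a count of 0 in the 16 tenocytes of day 2 allows a level of up to 19.0 CPM, taken as 3 counts.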
